A study of Mus musculus with 12 samples.

Results

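YAP (gene Yap1) and TAZ (gene Wwtr1) are transcriptional coactivators at the end of the Hippo pathway. When the LATS kinases phosphorylate them they stay in the cytoplasm, and otherwise they enter the nucleus and switch on genes through the DNA-binding TEAD proteins. In the mammary epithelium the pathway is known for linking cell shape, stiffness of the surroundings and cell identity. The 10 genes described here were chosen by name from a table of 25210 genes: the coactivators Yap1 and Wwtr1, the DNA-binding partner Tead1, the kinase gene Lats2, the scaffold genes Amotl1 and Amotl2, and the widely used target genes Ctgf, Cyr61, Ankrd1 and Axl. All 10 were among the 15316 genes with enough counts to be tested. Only RNA was measured, so phosphorylation and location of the proteins were not analysed here.

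Organoids, small fragments of mammary epithelium grown in a gel, were made from virgin FVB/N females 8 to 11 weeks old. Growth lasted 7 days in medium holding the solvent DMSO alone, or CHIR99021 at a dose of 1, 1.5 or 3 µM. This compound blocks GSK3, a kinase that marks β-catenin for destruction, and is used to raise WNT signalling. A separate animal supplied each of the 3 cultures, all 4 treatments were applied to every culture, and the 12 libraries of polyadenylated RNA held between 10129264 and 24485855 counts. The sample titles tag all libraries of culture 1 "med", of culture 2 "min" and of culture 3 "max", and what these tags mean is not given in the sources used here. The labels name no genetic change in any group, and other times were not analysed here. Axin2, a gene switched on by β-catenin, averaged 2.75 CPM with DMSO and 83.9 CPM at 3 µM. Levels are in CPM, counts divided by the size of the library, with sizes adjusted between libraries by the TMM method.

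The samples were whole organoids, in which fewer cells of a type and less RNA per cell cannot be told apart. Markers of several cell types moved with dose or differed between cultures. The summed level of 8 fibroblast markers, among them Col1a1 and Pdgfra, was 1635, 7392 and 20570 CPM with DMSO in cultures 1, 2 and 3, and 187, 989 and 4623 CPM at 3 µM. Most of the sum came from the collagen genes Col1a1, Col1a2 and Col3a1. The range over cultures with DMSO and at 3 µM was 60.1 to 400.5 and 7.68 to 172 CPM for Pdgfra. It was 76.0 to 321.5 and 11.1 to 85.0 CPM for Pdgfrb, and 13.55 to 412 and 2.82 to 193 CPM for Lum. Dcn went from 38.8, 219 and 625 CPM with DMSO to 13.9, 115 and 1071 CPM at 3 µM, higher in culture 3, and Fbln1 from 11.2, 19.9 and 64.0 CPM to 11.8, 17.1 and 54.0 CPM. All 8 differed between cultures, and none was called at any dose against DMSO by edgeR (also 0 at an unadjusted p under 0.05). That fit had no term for the culture, so the wide spread between cultures counted as noise in it. The absence of calls therefore does not show that these markers were unchanged by dose. No result with the culture as a block is given for them. At 3 µM, 4 of 5 macrophage markers and 5 of 5 endothelial markers were called lower (edgeR, adjusted p under 0.05), beside 57.5% of all genes called either way. By the same call Krt5, Krt14 and Trp63 were higher, and the other 5 basal and myoepithelial markers (contractile genes and Oxtr) were lower. Of the 8 luminal markers, 5 were called lower and the others were not called. All 8 squamous differentiation markers rose, from 28.4 to 62.2 CPM summed with DMSO to 26160, 23030 and 5414 CPM at 3 µM in cultures 1, 2 and 3. Their part in the results on the 10 genes was not tested. No defining marker of fibroblasts or endothelial cells was at 0 in any library, 1 macrophage marker was at 0 in 3 libraries, and 1 to 3 squamous markers were at 0 in each DMSO library.

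The promoters of 5 of the genes are shown because TEAD proteins act by binding DNA and these windows hold the motif. A promoter window of 300 bases, from 250 before to 50 after the start of transcription, was found in RefSeq (mouse build GRCm38.p6) for 8 of the 10 genes. Ctgf and Tead1 were not matched. The TEAD motif GGAATG, or CATTCC on the other strand, was in at least 1 window of 7 of the 8 matched genes, against 14.7% of 32851 promoter windows. The first count is of genes, which had 10 windows together, and the share is of windows, so the 2 are not the same measure. Amotl1 was the gene without it. The letters in capitals mark that motif, and each line gives 270 bases, from 250 before to 20 after the start, read 5′ to 3′ on the gene's strand.
Yap1: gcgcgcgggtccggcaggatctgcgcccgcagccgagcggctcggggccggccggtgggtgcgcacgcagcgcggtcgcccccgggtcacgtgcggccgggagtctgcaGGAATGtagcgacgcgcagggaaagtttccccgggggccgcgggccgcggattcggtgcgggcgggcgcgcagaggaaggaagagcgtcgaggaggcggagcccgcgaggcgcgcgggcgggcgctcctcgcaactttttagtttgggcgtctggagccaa
Wwtr1: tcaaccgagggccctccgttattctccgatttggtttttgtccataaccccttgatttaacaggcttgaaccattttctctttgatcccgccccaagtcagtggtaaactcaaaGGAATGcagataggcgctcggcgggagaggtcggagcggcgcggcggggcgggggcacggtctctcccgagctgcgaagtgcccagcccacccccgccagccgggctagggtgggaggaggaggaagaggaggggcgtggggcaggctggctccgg
Lats2: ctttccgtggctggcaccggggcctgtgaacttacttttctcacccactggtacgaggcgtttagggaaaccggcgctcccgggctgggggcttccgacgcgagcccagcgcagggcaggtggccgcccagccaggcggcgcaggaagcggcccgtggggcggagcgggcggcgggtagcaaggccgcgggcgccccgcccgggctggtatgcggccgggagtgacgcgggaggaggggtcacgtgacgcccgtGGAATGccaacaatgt
Cyr61: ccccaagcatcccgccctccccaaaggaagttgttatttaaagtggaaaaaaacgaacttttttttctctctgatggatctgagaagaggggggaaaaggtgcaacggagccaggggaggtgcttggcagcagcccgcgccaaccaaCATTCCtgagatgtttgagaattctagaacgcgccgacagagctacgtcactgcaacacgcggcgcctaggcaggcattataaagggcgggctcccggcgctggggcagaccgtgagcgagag
Ankrd1: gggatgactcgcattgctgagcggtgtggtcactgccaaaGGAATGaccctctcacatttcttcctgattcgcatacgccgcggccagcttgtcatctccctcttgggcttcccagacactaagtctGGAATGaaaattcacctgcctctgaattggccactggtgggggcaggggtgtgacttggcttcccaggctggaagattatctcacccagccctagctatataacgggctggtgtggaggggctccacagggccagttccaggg
In order of the lines, the Yap1 sequence lies at chr9:8004577-8004846, the Wwtr1 sequence at chr3:57575891-57576160 and the Lats2 sequence at chr14:57746104-57746373. The Cyr61 sequence lies at chr3:145649966-145650235 and the Ankrd1 sequence at chr19:36119825-36120094, and all 5 are on the minus strand. Ankrd1 has the motif at 2 places, 210 and 123 bases before the start, Yap1 at 1 place, 141 bases before it, and Lats2 at 1 place, 5 bases after it. RefSeq also lists another start for Wwtr1, whose window holds the same copy of the motif, and another for Lats2, whose window holds none. The AP-1 motif TGANTCA, searched on both strands, was in 0 of the 8 genes' windows (7.81% of all windows). The TCF/LEF motif CTTTGAT, or ATCAAAG, was in the windows of Wwtr1 and Amotl2 (3.73% of all windows). No match overlapped another motif. A match says only that these letters are in the window.

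Yap1 rose with dose, while Wwtr1, Tead1 and Lats2 fell, and the other 6 genes did not pass the test at any dose. With adjusted p under 0.05 as the call (edgeR, Benjamini-Hochberg over 15316 genes), 4 of the 10 genes were called at 3 µM against DMSO, beside 57.5% of all genes tested. At 1.5 µM, 3 were called, beside 27.3% of all genes. At 1 µM, 0 were called (0 at an unadjusted p under 0.05, and 0 by DESeq2), beside 0.242% of all genes. The median log2 fold change of the 10 was -0.12, -0.26 and -0.25 at 1, 1.5 and 3 µM, beside -0.0046, -0.0018 and -0.03 over all genes tested. The share called at each dose is near or below that of all genes, so the count itself is no result about these genes.

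**Figure D1:**
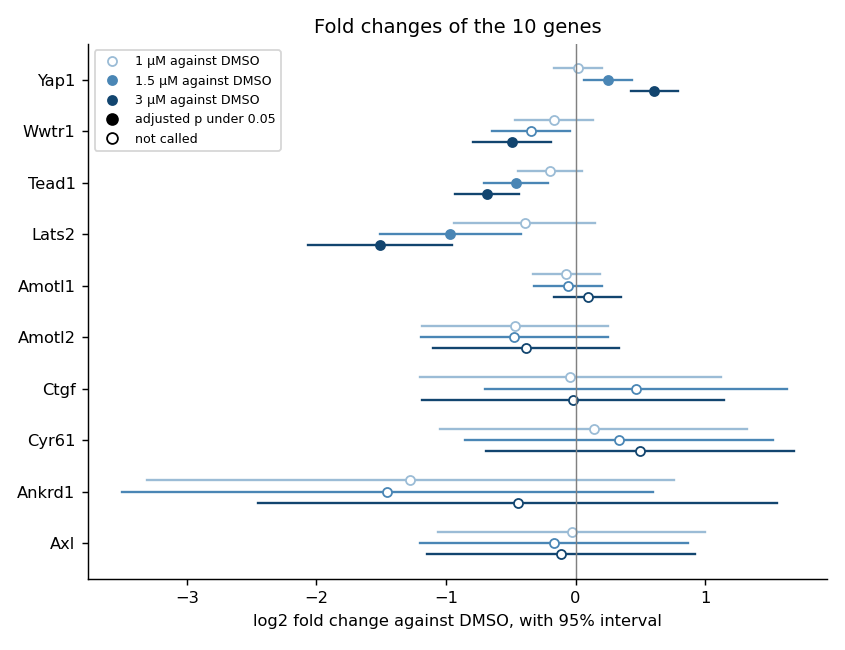
Log2 fold changes of the 10 genes against DMSO (x axis) at 1, 1.5 and 3 µM CHIR99021 (light to dark), with 95% intervals from the edgeR fit over 12 libraries. That fit had no term for the culture. Filled points passed an adjusted p under 0.05, which at 3 µM were Yap1 on the right and Wwtr1, Tead1 and Lats2 on the left of 0.

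Yap1 (ENSMUSG00000053110, chr9:7931999-8004596 on GRCm38, minus strand) encodes the coactivator YAP. Its level was 165, 136 and 143 CPM with DMSO in cultures 1, 2 and 3. It was 157, 149 and 144 CPM at 1 µM, 176, 171 and 181 CPM at 1.5 µM, and 226, 217 and 236 CPM at 3 µM. Every library at 1.5 and 3 µM lay above every DMSO library, and the libraries at 1 µM overlapped them. The mean went from 148 ± 15.2 CPM (SD, n = 3) with DMSO to 226 ± 9.16 CPM at 3 µM. The log2 fold change at 3 µM was 0.61 ± 0.08 (SE, adjusted p = 0.00017), higher in 3 of 3 cultures. At 1.5 µM it was 0.25 ± 0.08 (adjusted p = 0.0474), and at 1 µM it was 0.02 ± 0.08 (adjusted p = 0.966). The step from 1.5 to 3 µM was 0.36 ± 0.08 (adjusted p = 0.00993), and Yap1 was the only one of the 10 genes called in it, beside 29.7% of all genes. The call at 1.5 µM was lost in all but 4 of the 21 alternatives tried, with adjusted p between 0.0138 and 0.338 over all of them. The step from 1.5 to 3 µM was 0.09 (adjusted p = 0.532) when libraries were scaled by their totals only, and was not called without the filter (adjusted p = 0.0542) or with any culture left out.

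Wwtr1 (ENSMUSG00000027803, chr3:57455649-57575910, minus strand) encodes TAZ, the paralog of YAP. It measured 200, 211 and 174 CPM with DMSO in the 3 cultures. Levels were 174, 194 and 153 CPM at 1 µM, 153, 175 and 132 CPM at 1.5 µM, and 124, 137 and 156 CPM at 3 µM. At 3 µM all libraries were below all DMSO libraries, and at 1 and 1.5 µM the groups overlapped although each culture was below its own DMSO library. In culture 3 the level rose again from 132 to 156 CPM between 1.5 and 3 µM, while it fell in the other two. Against DMSO the log2 fold change was -0.49 ± 0.13 (SE, adjusted p = 0.0103) at 3 µM, -0.34 ± 0.13 (adjusted p = 0.0817) at 1.5 µM and -0.17 ± 0.13 (adjusted p = 0.699) at 1 µM. With the culture as a block, the 1.5 µM difference was -0.35 and was called (adjusted p = 0.0342), as it was by DESeq2 (-0.37, adjusted p = 0.0417). The 3 µM call was lost without culture 1 (-0.39, adjusted p = 0.154) and without culture 2 (-0.42, adjusted p = 0.097).

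The opposite movement of Yap1 and Wwtr1 changed their balance. Levels were divided by kilobases of annotated exon, with the exons of all transcripts of a gene merged. Which transcripts were present was not analysed, so this allows only a rough comparison between genes. On this scale Yap1 was 0.427, 0.333 and 0.425 of the Wwtr1 level with DMSO in cultures 1, 2 and 3. The ratio was 0.467, 0.398 and 0.485 at 1 µM, 0.592, 0.506 and 0.71 at 1.5 µM, and 0.942, 0.819 and 0.782 at 3 µM. It was higher at each dose than at the dose below in all 3 cultures. This ratio was looked at after the values were seen and carries no test.

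Tead1 (ENSMUSG00000055320, chr7:112679318-112906807, plus strand) encodes a DNA-binding partner of YAP and TAZ. With DMSO it measured 158, 151 and 153 CPM in the 3 cultures. It was 122, 138 and 143 CPM at 1 µM, 108, 109 and 119 CPM at 1.5 µM, and 82.1, 93.1 and 113 CPM at 3 µM. Each treated library was below each DMSO library, and the decline was largest in culture 1 and smallest in culture 3. The edgeR log2 fold change was -0.20 ± 0.11 (SE, adjusted p = 0.545) at 1 µM, -0.46 ± 0.11 (adjusted p = 0.0134) at 1.5 µM and -0.68 ± 0.11 (adjusted p = 0.00055) at 3 µM. The 1.5 µM call was lost without the 1.5 µM library of culture 1 (-0.43, adjusted p = 0.0562), without culture 1 (-0.41, adjusted p = 0.0837) and without culture 2 (-0.46, adjusted p = 0.204). The step from 1.5 to 3 µM was -0.22 (adjusted p = 0.158), but it was called without the 3 µM library of culture 3 (-0.35, adjusted p = 0.0179), without culture 3 (-0.33, adjusted p = 0.0344) and with library totals only (-0.49, adjusted p = 0.015).

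Lats2 (ENSMUSG00000021959, chr14:57642077-57758388, minus strand) encodes a kinase that inactivates YAP and TAZ and is itself a reported target of theirs. Its fold change was the largest of the 4 called genes. The level was 62.8, 73.9 and 62.3 CPM with DMSO in the 3 cultures, 43.4, 51.4 and 56.6 CPM at 1 µM, and 29.9, 35.1 and 36.8 CPM at 1.5 µM. At 3 µM it was 14.5, 21.9 and 33.5 CPM, so culture 1 kept 0.231 of its DMSO level and culture 3 kept 0.538. All treated libraries were below all DMSO libraries. In log2 the change was -0.39 ± 0.24 (SE, adjusted p = 0.589) at 1 µM, -0.97 ± 0.25 (adjusted p = 0.0163) at 1.5 µM and -1.51 ± 0.25 (adjusted p = 0.000601) at 3 µM. The 1.5 µM call was lost without the DMSO library of culture 2 (-0.91, adjusted p = 0.0562), without the 1.5 µM library of culture 1 (-0.88, adjusted p = 0.0665) and without culture 2 (-0.91, adjusted p = 0.244). The step from 1.5 to 3 µM was -0.54 ± 0.25 (adjusted p = 0.123). With the culture as a block that step was -0.58 and was called (adjusted p = 0.0331), and it was also called with library totals only (-0.80, adjusted p = 0.037), without the 3 µM library of culture 3 (-0.89, adjusted p = 0.00707) and without culture 3 (-0.85, adjusted p = 0.0216).

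The deposited span of Lats2 overlaps Xpo4, a nuclear export receptor gene on the same strand. Xpo4 counts moved the other way, from 31.8, 31.0 and 27.2 CPM with DMSO to 55.4, 51.6 and 51.0 CPM at 3 µM (log2 fold change 0.81 ± 0.09, adjusted p = 5.59e-05 by edgeR). Xpo4 was looked up after this overlap was seen. Over all libraries Lats2 had 9233 counts and Xpo4 8105, and how reads from the shared stretch were divided is not given in the sources used here. Yap1, Wwtr1, Tead1 and Ctgf overlap only genes that had at most 16 counts over all libraries or were not in the table.

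**Figure D2:**
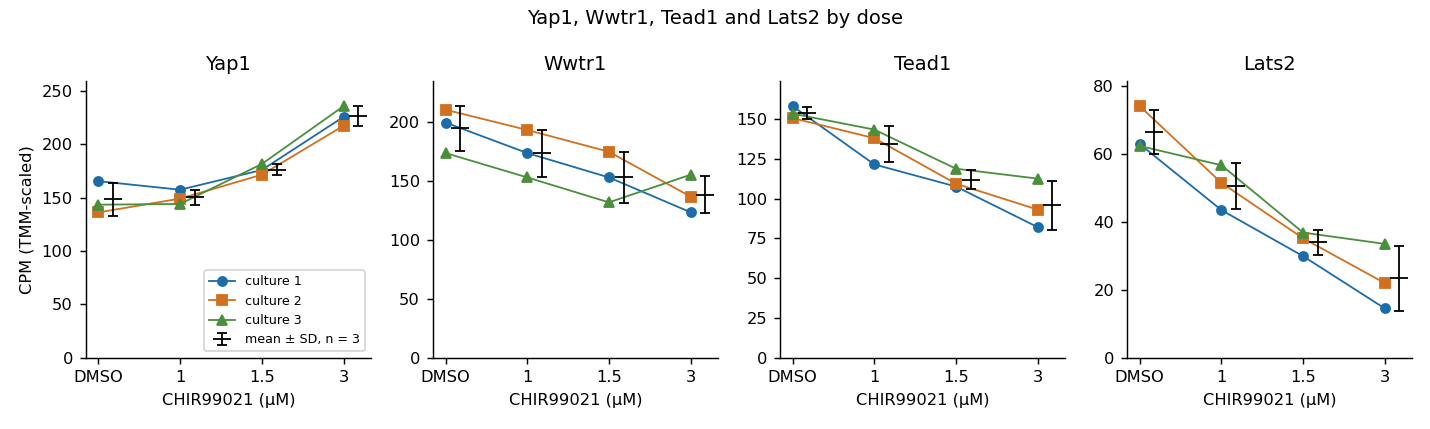
Level of Yap1, Wwtr1, Tead1 and Lats2 (y axis, TMM-scaled CPM from 0) in each library by group (x axis, evenly spaced groups, CHIR99021 in µM). Coloured lines join the libraries of 1 culture and black bars give the mean ± SD of 3 libraries. Yap1 ended between 217 and 236 CPM at 3 µM, above all DMSO libraries, while Lats2 ended between 14.5 and 33.5 CPM, below all of them.

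A slope on dose over all 12 libraries called the same 4 genes, beside 58.2% of all genes tested. The slope was 0.22 ± 0.03 log2 per µM for Yap1 (SE, adjusted p = 0.00016, edgeR), -0.17 ± 0.04 for Wwtr1 (adjusted p = 0.0056) and -0.23 ± 0.04 for Tead1 (adjusted p = 0.000281). For Lats2 it was -0.52 ± 0.08 (adjusted p = 0.000225). The Wwtr1 slope was not called without culture 1 (-0.13, adjusted p = 0.102) or without culture 2 (-0.14, adjusted p = 0.063). Between 1 and 1.5 µM, edgeR called 0 of the 10 genes (3 at an unadjusted p under 0.05, and 0 by DESeq2), beside 5.43% of all genes. With the culture as a block, Yap1 was called in that step (0.23, adjusted p = 0.0473).

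Among the scaffold genes, Amotl1 kept a steady level and Amotl2 was spread widely between cultures. Both encode angiomotin-like proteins, which bind YAP and TAZ and hold them at cell junctions or in the cytoplasm. Amotl1 (ENSMUSG00000013076, chr9:14541966-14615483, minus strand) measured 285, 276 and 274 CPM with DMSO, 252, 280 and 263 CPM at 1 µM, and 254, 261 and 287 CPM at 1.5 µM. At 3 µM it measured 263, 269 and 360.0 CPM. The library of culture 3 at 3 µM stood above all others, and the rest lay between 252 and 287 CPM. Its log2 fold change at 3 µM was 0.09 with a 95% interval from -0.17 to 0.35 (adjusted p = 0.513, edgeR), and the sign was negative without that library (-0.09, adjusted p = 0.347).

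Amotl2 (ENSMUSG00000032531, chr9:102716672-102733418, plus strand), which is also a reported YAP target, measured 129, 146 and 99.3 CPM with DMSO. It was 81.8, 115 and 74.2 CPM at 1 µM and 83.0, 113 and 73.6 CPM at 1.5 µM, lower than DMSO in each culture. At 3 µM it was 58.3 and 81.4 CPM in cultures 1 and 2, but 148 CPM in culture 3, above that culture's DMSO level. At 3 µM its log2 fold change was -0.38 ± 0.32 (SE, adjusted p = 0.331, edgeR). Without the 3 µM library of culture 3 it was -0.86 (adjusted p = 0.0225), and without culture 3 it was -0.99 (adjusted p = 0.0112).

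Of the target genes Ctgf, Cyr61, Ankrd1 and Axl, none was called by edgeR in any of the 3 comparisons with DMSO, and their intervals reached well to both sides of 0. The fit had no term for the culture, so spread between cultures counted as noise in these intervals. With the culture as a block none of these genes was called against DMSO either, and the intervals of that fit are not given here. Ctgf (ENSMUSG00000019997, also named Ccn2, chr10:24595442-24598683, plus strand) encodes a secreted matrix-associated protein. It measured 68.3, 111 and 82.6 CPM with DMSO, 83.0, 107 and 64.7 CPM at 1 µM, and 118, 200.0 and 42.6 CPM at 1.5 µM. The 3 µM values were 38.3, 107 and 112 CPM. In cultures 1 and 2 the highest value was at 1.5 µM, and in culture 3 that dose gave the lowest. The log2 fold change at 3 µM was -0.02, with a 95% interval from -1.18 to 1.15 (adjusted p = 0.979).

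Cyr61 (ENSMUSG00000028195, also named Ccn1, chr3:145646971-145649985, minus strand) encodes a secreted protein of the same family. With DMSO it was 39.4, 98.3 and 56.5 CPM, at 1 µM 37.0, 114 and 62.4 CPM, and at 1.5 µM 55.5, 116 and 73.3 CPM. At 3 µM it was 40.1, 96.3 and 136 CPM. Each of the 3 cultures was above its own DMSO library at 1.5 µM, and at 3 µM the cultures stood at 1.02, 0.98 and 2.42 times their DMSO levels. The log2 fold change at 3 µM was 0.50 with an interval from -0.69 to 1.69 (adjusted p = 0.446, edgeR), and it was -0.01 without culture 3 (adjusted p = 0.995).

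Ankrd1 (ENSMUSG00000024803, chr19:36111965-36119844, minus strand) encodes an ankyrin repeat protein often used as a readout of YAP. It was the least abundant of the 10, with 11 to 215 counts per library. Its level was 1.16, 5.89 and 11.6 CPM with DMSO, 0.558, 2.48 and 4.66 CPM at 1 µM, 1.34, 1.19 and 4.29 CPM at 1.5 µM, and 1.96, 6.80 and 4.83 CPM at 3 µM. At 1 µM each culture was below its own DMSO library, at 0.483, 0.422 and 0.402 of it. In edgeR its log2 fold change was -1.27 ± 0.91 at 1 µM (SE, adjusted p = 0.65), -1.45 ± 0.92 at 1.5 µM (adjusted p = 0.265) and -0.45 ± 0.90 at 3 µM (adjusted p = 0.687), and none was called.

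Axl (ENSMUSG00000002602, chr7:25757273-25788705, minus strand) encodes a receptor tyrosine kinase and is a reported YAP target. With DMSO the cultures were close together at 105, 112 and 116 CPM. They then moved apart, to 74.1, 116 and 135 CPM at 1 µM, 57.0, 83.1 and 156 CPM at 1.5 µM, and 52.9, 74.4 and 180 CPM at 3 µM. Culture 1 was lower at each higher dose and culture 3 was higher at each higher dose. The log2 fold change at 3 µM was -0.11 with an interval from -1.14 to 0.92 (adjusted p = 0.851, edgeR). Without culture 3 it was -0.77 and was called (adjusted p = 0.0467).

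**Figure D3:**
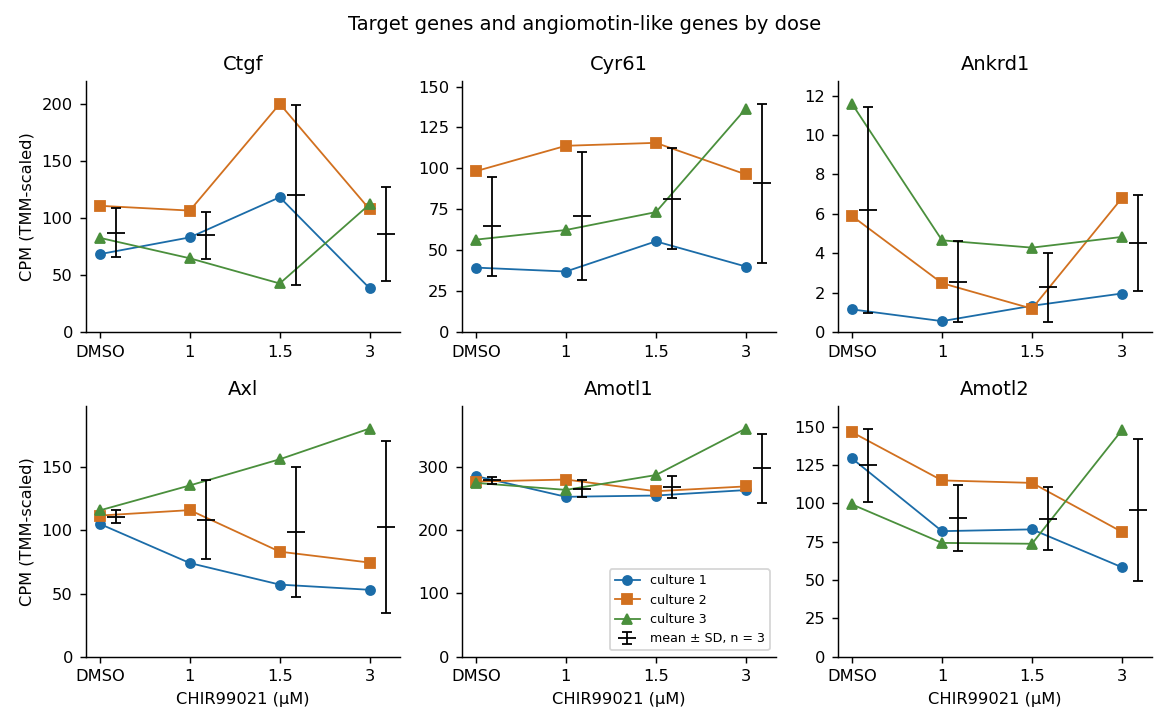
Level of the target genes Ctgf, Cyr61, Ankrd1 and Axl and of Amotl1 and Amotl2 (y axis, TMM-scaled CPM from 0) in each library by group (x axis, evenly spaced groups, CHIR99021 in µM). Lines join the libraries of 1 culture and black bars give the mean ± SD of 3 libraries. In culture 3 at 3 µM, Cyr61, Axl, Amotl1 and Amotl2 reached 136, 180, 360.0 and 148 CPM, above the libraries of the other cultures at that dose.

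The cultures differed in the level of 3 of the 10 genes, beside 28.8% of all genes tested (edgeR, both culture terms tested together). These were Cyr61 (adjusted p = 0.00946), Ankrd1 (adjusted p = 0.0133) and Axl (adjusted p = 0.022). Averaged over doses, Cyr61 was 1.32 ± 0.23 log2 higher (SE) in culture 2 than in culture 1 and 0.89 ± 0.23 higher in culture 3. Ankrd1 was 1.59 ± 0.46 higher in culture 2 and 2.36 ± 0.45 higher in culture 3 than in culture 1, and Axl 0.42 ± 0.23 and 1.08 ± 0.24 higher. For Axl this average does not describe the DMSO level. Its cultures ranged from 105 to 116 CPM with DMSO and from 52.9 to 180 CPM at 3 µM. Without the 1 µM library of culture 1, the call was lost for Ankrd1 (adjusted p = 0.0527) and Axl (adjusted p = 0.0626). The Axl call was also lost without the filter (adjusted p = 0.0526), without the 1.5 µM library of culture 1 (adjusted p = 0.065) or of culture 3 (adjusted p = 0.0722), and without the 3 µM library of culture 1 (adjusted p = 0.0579). Without the 3 µM library of culture 3, 5 of the 10 genes were called, among them Amotl2 (adjusted p = 0.000813) and Wwtr1 (adjusted p = 0.00185). The count over all genes in that fit is not given here. Over all fits that left out 1 library it ran from 2658 to 5860, beside 4418 with all libraries.

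The summed fibroblast markers were lowest in culture 1 and highest in culture 3 in each of the 4 groups. Ankrd1 had the same order of cultures with DMSO and at 1 µM, but at 3 µM culture 2 was the highest. Axl had that order of cultures in all 4 groups. With DMSO its range was 105 to 116 CPM, where the fibroblast sum ranged from 1635 to 20570 CPM. In culture 3 the fibroblast sum was 20570 CPM with DMSO and 4623 CPM at 3 µM, Dcn of that list was 625 and 1071 CPM, and Axl was 116 and 180 CPM. Pdgfra of the same list went the other way from Dcn, with a highest library of 400.5 CPM with DMSO and 172 CPM at 3 µM. What part these markers had in the differences between cultures was not tested.

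**Figure D4:**
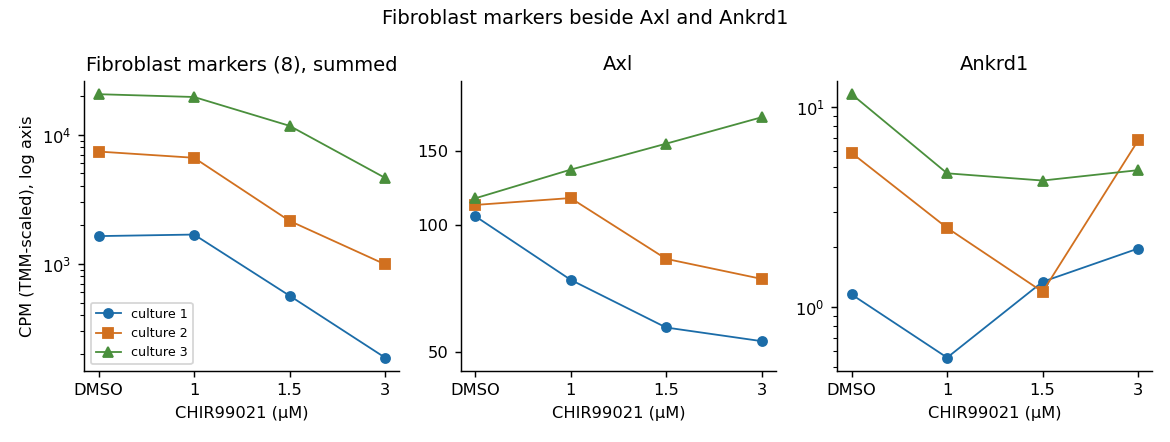
Summed level of 8 fibroblast markers (left), Axl (middle) and Ankrd1 (right) in TMM-scaled CPM on log axes, by group (x axis, evenly spaced, CHIR99021 in µM), with a line for each culture. The fibroblast sum was lower at 3 µM than with DMSO in all 3 cultures, at 187, 989 and 4623 CPM, while Axl was lower in cultures 1 and 2 and reached 180 CPM in culture 3.

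At 3 µM the library of culture 3 had the highest CPM of the 3 cultures for 9 of the 10 genes, Ankrd1 being the exception, against 41.1% of all genes tested. With DMSO and at 1 and 1.5 µM, culture 3 was the highest for 2, 4 and 6 of the 10. The shares of all genes there were 33.9%, 38.8% and 41.7%. This count was made after the values were seen and carries no test. It rests on 1 library per dose, and several of the 10 genes moved together between cultures, so they are not separate observations. The slope on dose per culture was -0.33 ± 0.07, -0.22 ± 0.08 and 0.22 ± 0.08 log2 per µM for Axl in cultures 1, 2 and 3 (SE). For Amotl2 it was -0.36 ± 0.12, -0.28 ± 0.12 and 0.22 ± 0.11, and for Cyr61 0.03 ± 0.10, -0.02 ± 0.10 and 0.44 ± 0.09. The Lats2 slope was -0.72 ± 0.08, -0.59 ± 0.08 and -0.32 ± 0.08, negative in all 3 cultures. Yap1 had slopes of 0.16, 0.23 and 0.26, all upward. A test of whether the slope differed between cultures called 0 of the 10 genes by edgeR, beside 0% of all genes. At an unadjusted p under 0.05 there were 4 of the 10 (Axl, Amotl2, Lats2 and Cyr61) and 1230 of 15316 genes in all. No other tool was run for this test. In the same library of culture 3 at 3 µM, the squamous markers summed to 5414 CPM, against 26160 and 23030 CPM in cultures 1 and 2, and Axin2 was 52.5 CPM, against 132 and 67.2 CPM. The squamous sum of culture 3 was also the lowest at 1 µM (239 CPM, against 467 and 618 CPM). At 1.5 µM it was again the lowest (1902 CPM, against 4545 and 4836 CPM), so this is not particular to the 3 µM library.

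The 10 genes were ordered by level per kilobase of exon, in CPM per kb. The order depends on the merged exon length of all annotated transcripts and is rough. With DMSO the order was Wwtr1 (40.8 ± 3.96, SD, n = 3), Cyr61 (32.1 ± 15.0), Ctgf (30.5 ± 7.53), Amotl1 (27.7 ± 0.569), Axl (22.01 ± 1.07), Amotl2 (19.9 ± 3.79) and Yap1 (16.0 ± 1.65). Below them were Tead1 (11.35 ± 0.278), Lats2 (9.52 ± 0.948) and Ankrd1 (2.15 ± 1.81). Neighbours overlapped in range from Wwtr1 down to Amotl1 and from Axl down to Yap1. The libraries did not overlap between Amotl1 and Axl, between Yap1 and Tead1, between Tead1 and Lats2, or between Lats2 and Ankrd1. At 3 µM Wwtr1 was the fourth, at 29.0 ± 3.36, behind Cyr61 (45.1 ± 24.0), Ctgf (30.05 ± 14.4) and Amotl1 (29.5 ± 5.41), and overlapped with all of them. Yap1 was next at 24.4 ± 0.991, below every Wwtr1 library, and Lats2 (3.34 ± 1.37) overlapped with Ankrd1 (1.57 ± 0.844).

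By Pearson correlation of log2 CPM over the 12 libraries, which share cultures and doses, the gene most like Yap1 was Amd1 (r = 0.991). Those most like Wwtr1 were Lag3 (0.978) and Pnpla3 (0.965), and those most like Tead1 were Fam129a (0.989) and Lats2 (0.984). For Lats2 they were Htra3 (0.993) and Pmp22 (0.99). Axl was most like Layn (0.974) and Adamts4 (0.957), and Ankrd1 most like Fam43a (0.946) and Tnnt2 (0.944). The remaining genes had weaker likenesses: Amotl1 with Slc44a4 (0.928) and Inf2 (0.912), Amotl2 with Lxn (0.887) and Gpr137b-ps (0.878), Cyr61 with Ak1 (0.876) and Spry2 (0.861), and Ctgf with Atp10d (0.83) and Ube2r2 (0.823). Tead1 and Lats2 were at r = 0.912 with the group means removed. Tead1 and Axl were at 0.573 over the 12 libraries and at 0.918 with the group means removed. Yap1 and Wwtr1, at r = -0.71 over the 12 libraries, were at 0.03 with the group means removed. Ctgf and Cyr61, of the same family, were at 0.604 over the libraries and 0.639 with the group means removed.

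Of 24 further Hippo pathway genes tested, 5 rose and 4 fell at 3 µM and the others were not called, beside 57.5% of all genes called, and their median log2 fold change was -0.04 beside -0.03 over all genes. Ajuba, a LIM protein that holds back LATS kinases, rose from 53.9, 36.0 and 39.2 CPM with DMSO to 93.7, 116 and 125 CPM at 3 µM. Its log2 fold change was 1.37 ± 0.16 (SE, adjusted p = 6.83e-05, edgeR). Nf2, the gene of the upstream regulator merlin, rose by 0.53 ± 0.10 (adjusted p = 0.000985), with 111, 109 and 106 CPM with DMSO and 172, 170 and 131 CPM at 3 µM, and was not called without culture 2 (0.48, adjusted p = 0.0508). Amot, the founding angiomotin gene, fell from 30.2, 37.0 and 37.2 CPM to 13.2, 13.5 and 9.59 CPM (log2 -1.52 ± 0.19, adjusted p = 9.33e-05). Wwc2, a scaffold gene, fell from 108, 93.5 and 93.7 CPM to 62.4, 70.1 and 55.9 CPM (log2 -0.65 ± 0.11, adjusted p = 0.00073).

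Fat4, an atypical cadherin gene, went from 12.0, 23.2 and 47.7 CPM with DMSO to 1.33, 4.04 and 8.21 CPM at 3 µM (log2 -2.60 ± 0.82, adjusted p = 0.0201, edgeR). Its order of cultures was that of the fibroblast markers at both doses. The Fat4 call was lost without the DMSO library of culture 3 (-1.99, adjusted p = 0.0735), without the 3 µM library of culture 1 (-2.19, adjusted p = 0.0587) or of culture 2 (-2.54, adjusted p = 0.064), and without culture 2 (-2.64, adjusted p = 0.17). With the culture as a block, 7 of the 24 genes rose and 8 fell at 3 µM. The 9 calls became 5 without the 3 µM library of culture 1, 3 without culture 2 and 6 without the filter. Leaving out 1 library gave 7500 to 9391 genes in all at 3 µM. The count over all genes at that dose is not given here for the block or the other fits, so these counts are no result about the 24 genes. With library totals only, the 9 calls were 2 higher and 7 lower, and that scaling moved the median of all genes to -0.23. At 1.5 µM, 3 of the 24 were called, of which 1 was higher, beside 27.3% of all genes. With the culture as a block 9 were called, beside 7147 of the 15316 genes. Those 3 became 1 without the 1.5 µM library of culture 1 or without culture 1, and 0 without culture 2. Without that library 2576 genes in all were called, and no count over all genes was made with a whole culture left out. At 1 µM edgeR called 0 (1 at an unadjusted p under 0.05, and 1 by DESeq2).

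Of the 4 TEAD genes, Tead1 and Tead2 fell at 3 µM, Tead4 rose and Tead3 was not called. Tead4 went from 21.9, 12.5 and 11.2 CPM with DMSO to 28.6, 27.1 and 37.6 CPM at 3 µM (log2 1.03 ± 0.37, adjusted p = 0.0344, edgeR), but this call was kept in 12 of 21 alternatives, with adjusted p between 0.0041 and 0.21. The call was lost without the 3 µM library of culture 1 (adjusted p = 0.0626), culture 2 (adjusted p = 0.0566) or culture 3 (adjusted p = 0.103), and with culture 3 left out of all groups the change was 0.67 (adjusted p = 0.181). Tead2, named after its values were seen as a paralog of Tead1, was 73.1, 63.9 and 61.9 CPM with DMSO and 95.8, 91.8 and 80.0 CPM at 1 µM. It fell to 49.6, 47.9 and 51.3 CPM at 3 µM (log2 -0.42 ± 0.11, adjusted p = 0.00645). Tead3, named for the same reason, had a log2 fold change of -0.30 ± 0.14 (adjusted p = 0.0919). Lats1, the paralog of Lats2 and named likewise, was 148, 140 and 144 CPM with DMSO and 172, 148 and 154 CPM at 3 µM (log2 0.13 ± 0.08, adjusted p = 0.17).

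A further 16 reported YAP and TAZ targets, a list taken from general knowledge, were also tested, and at 3 µM 5 rose and 5 fell, beside 57.5% of all genes called. Their median log2 fold change was -0.17, beside -0.03 over all genes. Nuak2, a kinase gene of the AMPK-related family, rose from 4.40, 2.13 and 6.41 CPM to 22.4, 14.9 and 26.1 CPM (log2 2.27 ± 0.40, SE, adjusted p = 0.000871, edgeR). Crim1, a membrane protein gene, was 146, 97.6 and 72.9 CPM with DMSO and 214, 155 and 139 CPM at 3 µM (log2 0.68 ± 0.26, adjusted p = 0.0452). Fjx1, at 3.07, 2.84 and 3.18 CPM with DMSO, was 4.23, 4.68 and 5.59 CPM at 3 µM (log2 0.67 ± 0.21, adjusted p = 0.018). The calls of Crim1 and Fjx1 were kept in 7 and 13 of 21 alternatives, with adjusted p up to 0.242 and 0.144.

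Ccdc80, an extracellular matrix protein gene, fell from 244, 609 and 350 CPM with DMSO to 17.5, 42.7 and 69.2 CPM at 3 µM (log2 -3.21 ± 0.52, SE, adjusted p = 0.000514, edgeR). Rbms3, an RNA-binding protein gene, fell from 41.4, 43.0 and 59.2 CPM to 2.51, 5.20 and 18.4 CPM (log2 -2.46 ± 0.68, adjusted p = 0.0106), a call that was lost without culture 2 (-2.27, adjusted p = 0.135). Arhgef17 fell from 178, 161 and 154 CPM to 36.0, 48.5 and 76.5 CPM (log2 -1.61 ± 0.23, adjusted p = 0.000232). For these 3 genes every 3 µM library was below every DMSO library. They were picked for their fall in this same comparison, so that separation adds no support. Culture 3 had the highest level of each at 3 µM, as it did for 41.1% of all genes tested. The summed fibroblast markers were lower at 3 µM in each culture as well, and their part in these decreases was not tested. At 1.5 µM, 3 of the 16 were called, all lower, beside 27.3% of all genes. With the culture as a block 9 were called (2 higher, 7 lower), beside 7147 of the 15316 genes. At 1 µM, 0 were called by edgeR (0 at an unadjusted p under 0.05, and 0 by DESeq2). At 3 µM the 10 calls became 6 without culture 2, and 2 higher and 5 lower with library totals only. At 1.5 µM the calls became 0 without culture 2, and 1 without the DMSO library of culture 2 or the 1.5 µM library of culture 1. Without these libraries 2462 and 2576 genes in all were called at 1.5 µM. The count over all genes is not given here for the fits without culture 2, or for library totals only at 3 µM.

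**Figure D5:**
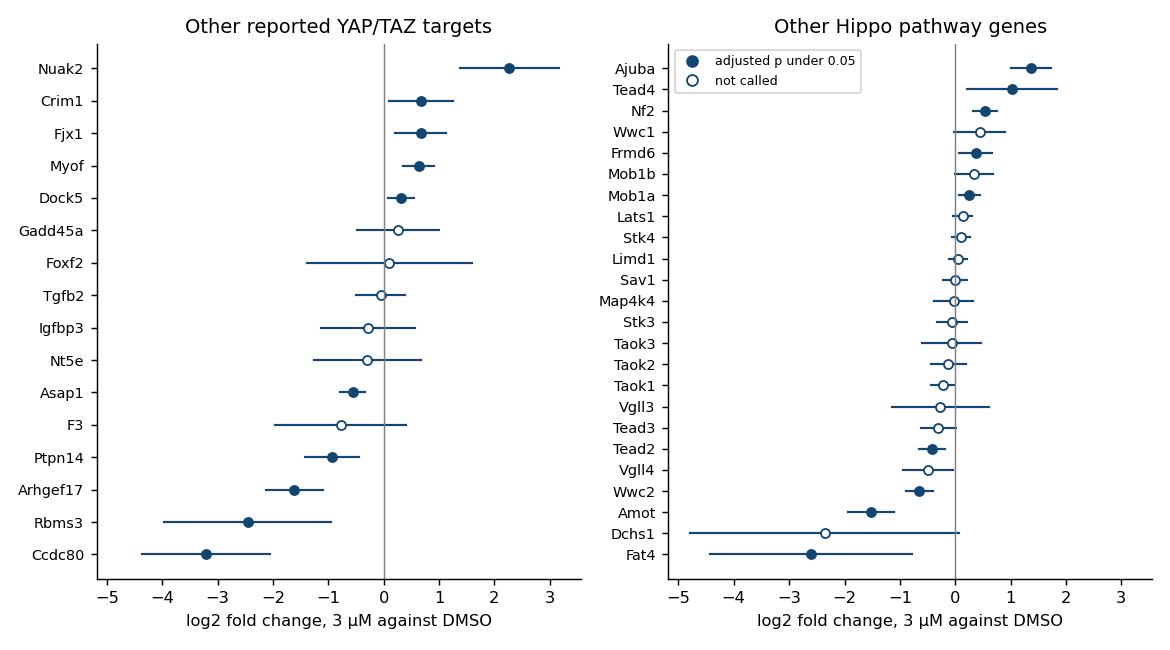
Log2 fold changes at 3 µM CHIR99021 against DMSO (x axis, with 95% intervals from the edgeR fit) of 16 other reported YAP and TAZ targets (left) and 24 other Hippo pathway genes (right), sorted by value. Filled points passed an adjusted p under 0.05: on the left 5 lay above 0 and 5 below, on the right 5 above and 4 below.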

How the data were processed

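Per the labels' protocols, polyadenylated RNA was made into stranded libraries. The authors deposited raw read counts per gene; the submitters' processing notes name TopHat2 2.1, Bowtie 1.1.0, HTSeq and the build GRCm38. Whether counting used the strand is not given in the sources used here. Of the deposited gene identifiers, 24902 are in GENCODE M21, from which overlaps and exon lengths came. Counts were tested with edgeR 4.0.16 (R 4.3.3; TMM, filterByExpr, robust quasi-likelihood test, two-sided, 1 mean per group, SE from the F statistic), with adjustment over 15316 genes. Alternatives were the culture as a block, DESeq2 1.42.0, other scalings, no filter, only the 2 groups compared, and each library left out. Leaving out whole cultures was added after seeing the data. Replicate numbers pair libraries of 1 animal. Deviations from group means correlated at 0.177 to 0.84 (median 0.505) in 18 same-number pairs. In 36 pairs with different numbers they correlated at -0.728 to 0.288 (median -0.212), so the 2 ranges overlapped. Replicates differed beyond sampling noise (chi-square per degree of freedom at least 12.8). The 10 genes and all lists were chosen with earlier results of these data known. By rule, the text names all 10, the 3 called genes with the largest rise and the 3 with the largest fall of each list at 3 µM, and the 2 most correlated genes (log2 CPM, prior count 2), of which 1 is not reported here. The edgeR steps were tested on simulated data with no difference between cultures and changes in a small share of genes. Both points are unlike these data, so that run checks the code only.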

Additional observations from a re-analysis of the deposited data

How the results depend on the processing

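The 77 single values and calls had 1493 values under alternatives. Of these, 1365 kept direction and side of the threshold, 76 lost the call, 20 gained it and 32 changed sign, with 0 of those 32 called before or after. At 3 µM, Yap1, Tead1 and Lats2 were called in 21 of 21 alternatives. With the replicate block (the animal), 859, 7147, 3351 and 7149 genes in all were called at 1 and 1.5 µM against DMSO, 1.5 against 1 µM and 3 against 1.5 µM, and 1 and 2 of the 10 genes in the last 2 steps. The block changed no call of the 10 genes beyond those named above. DESeq2 called 485 genes at 1 µM and 1634 between 1 and 1.5 µM. Fitting only the 2 groups gave 0 genes at 1 µM, 2852 between 1.5 and 3 µM, and 1 of the 10 between 1 and 1.5 µM. Without the filter 494 genes were called between 1 and 1.5 µM, 0 of the 10 between 1.5 and 3 µM, and 2 genes for a slope that differs between cultures. Library totals only gave 2 of the 10 between 1.5 and 3 µM. Without culture 1, 2 or 3 that count was 0, 0 and 3, and without culture 1 or 2 the count at 1.5 µM was 1 and 0.

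Leaving out 1 library gave 3 to 50 genes at 1 µM, 2462 to 5085 at 1.5 µM, 135 to 1508 between 1 and 1.5 µM, 2962 to 5682 between 1.5 and 3 µM, and 2658 to 5860 between cultures. For the 10 genes it gave 0 to 3 at 1.5 µM, 1 to 3 between 1.5 and 3 µM, and 1 to 5 between cultures. Signs of uncalled log2 changes turned as follows. With library totals only, Ctgf was 0.046, Amotl1 0.0051 and Axl 0.044 at 1 µM, and Amotl1 0.013 at 1.5 µM and -0.10 at 3 µM. Without culture 1, Axl was 0.15, 0.076 and 0.17 at 1, 1.5 and 3 µM, and Ctgf 0.19 at 3 µM. Without culture 2, Yap1 was -0.035 at 1 µM and Axl 0.079 at 3 µM. Without culture 3, Ctgf was 0.10 at 1 µM, and at 3 µM Cyr61 was -0.0059, Amotl1 -0.086 and Ankrd1 0.38. Leaving out 1 library gave, at 1 µM, -0.051 to 0.10 for Yap1, -0.24 to 0.16 for Ctgf, -0.38 to 0.56 for Cyr61 and -0.22 to 0.18 for Axl. It gave, at 1.5 µM, -0.12 to 0.87 for Ctgf, -0.0029 to 0.74 for Cyr61 and -0.66 to 0.11 for Axl. At 3 µM it gave -0.28 to 0.31 for Ctgf, -0.089 to 0.15 for Amotl1, -0.95 to 0.36 for Ankrd1 and -0.82 to 0.18 for Axl. The cause of these shifts was not tested. Where an alternative left fewer libraries, fewer degrees of freedom went into each test. Ankrd1, with 11 to 215 counts per library, had the widest intervals of the 10 genes.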
